A study of Arabidopsis thaliana with 24 samples.

Results

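CAX1 (AT2G38170), AT3G62550, AT1G11700, AT1G68570, WAVH2 (AT5G65683) and CYP96A9 (AT4G39480) are 6 Arabidopsis thaliana loci, of 30197 loci represented on both array designs of the study, selected on their measured signal, which was lower in picloram-treated wild type than in the mutant afb5-5 after 2 h. All 6 were measured on both designs, by 6 transcripts on the first and by 8 on the second, which carried 3 splice forms of CAX1. The loci were chosen by arrays of experiment b below, from picloram-treated wild type against afb5-5 under picloram and under DMSO. The values of experiment b for the 6 loci are therefore given as a description with no p-value. The arrays of experiment a, which the choice did not use, carry the tests of the 6 loci; other genes were tested in both experiments.

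Picloram is a synthetic auxin of the picolinate class, and AFB5 is an F-box auxin receptor with a known affinity for it: the receptor binds auxin together with an Aux/IAA repressor protein, the repressor is ubiquitinated and degraded, and transcription controlled by auxin response factors changes. The hypocotyl is the seedling stem, in which auxin promotes cell elongation. Among the loci described here, CAX1 encodes a vacuolar calcium/proton antiporter, AT1G68570 a transporter of the NRT1/PTR family (NPF3.1), WAVH2 a RING-type protein homologous to the ubiquitin ligase WAV3, and CYP96A9 a cytochrome P450 of family 96. AT3G62550 is annotated as an adenine nucleotide alpha hydrolases-like protein of the universal stress protein type, and AT1G11700 as a protein of unknown function with a DUF584 domain.

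Hypocotyls were dissected from seedlings grown for 5 d in long days and moved to 5 µM picloram or to the solvent DMSO, and NimbleGen arrays gave the transcript signal in 2 experiments, each made of 4 groups with 3 replicates (12 samples). Experiment a compared Col-0 wild type given picloram or DMSO for 30 min or 2 h (about 400 pooled hypocotyls a replicate, amplified RNA). In experiment b, seedlings of afb5-5, the insertion line SALK_110643, and of Col-0 wild type were given picloram or DMSO for 2 h (about 700 pooled hypocotyls a replicate). Every level below is the log2 of the deposited intensity, after quantile normalization in experiment a. Picloram samples of experiment a were labelled with Cy3 and DMSO samples with Cy5, and the effects of dye and of picloram cannot be told apart there at either time. All samples of experiment b carried Cy3. The mutant is represented by 1 insertion line, replicates are pools of plants that nothing in the labels ties to separate sowings, and p-values measure only the spread between these samples.

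The treatment was checked on auxin-induced genes. IAA19, an Aux/IAA gene, rose by 1.79 (log2 against DMSO, SE 0.32; limma adjusted p = 0.00618) in wild type of experiment a at 2 h, and GH3.3, an auxin-conjugating enzyme, by 3.01 (SE 0.59; limma adjusted p = 0.00963). In experiment b the response of IAA19 was 0.39 in afb5-5 and 2.28 in wild type (SE 0.29 each), and that of GH3.3 was 1.41 in afb5-5 and 2.88 in wild type (SE 0.28 each); only the wild-type changes were called. The AFB5 transcript itself differed little between afb5-5 and wild type under DMSO (-0.35 ± 0.20, not called) and so does not check the genotype. Over all 24 samples the log2 of the summed signal ran from 8.22 to 9.36 for the 3 meristem markers and from 7.96 to 10.54 for the 3 root-tip markers. It ran from 7.93 to 11.79 for the 3 root-hair markers and from 14.22 to 17.10 for the 3 epidermis markers. These ranges pool 2 array designs: the epidermis sum was 16.91 to 17.10 in experiment a and 14.22 to 14.78 in experiment b. Sums of different probes or designs are not comparable in level, and no marker used defines the hypocotyl alone. Medians of the arrays spanned 1.72-fold in experiment a and 1.03-fold in experiment b.

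In experiment b, the signal of the 6 loci was lower after 2 h of picloram in both genotypes, by less in afb5-5 than in wild type. The picloram response of afb5-5 lay between -0.10 for CYP96A9 and -0.66 for WAVH2 (log2, median -0.45), a signal 6.97% to 36.5% lower. In wild type the same change ranged from -1.58 for CYP96A9 to -2.10 for AT3G62550 (median -1.78, against -0.03 over all transcripts), a signal 66.4% to 76.7% lower. Under DMSO the genotypes lay close together, with afb5-5 above wild type by 0.03 to 0.33. The DMSO samples of afb5-5 took part in the choice, which favours high values in them. None of the changes in afb5-5 was called.

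In the ranking of all 37118 transcripts of experiment b by their change in wild type, lowest first, AT3G62550 was the lowest, AT1G68570 stood at rank 2, CAX1 at 9, WAVH2 at 11, AT1G11700 at 14 and CYP96A9 at 18. By their change in afb5-5, WAVH2 stood at rank 38, AT3G62550 at 41, AT1G68570 at 107, AT1G11700 at 563, CAX1 at 981 and CYP96A9 at 8975. Called changes, at a false discovery rate (FDR) under 0.05 by limma, are given for these arrays only as a background to the choice. Picloram-treated wild type was called lower than its DMSO control for 5 of the 6 loci, all but WAVH2, in a comparison that called 0.458% of all transcripts lower. Its 3 samples all lay below the 3 DMSO samples for 6 of 6 loci, as they did for 10.2% of transcripts. Between the genotypes under picloram, afb5-5 was called higher for 4 of 6 loci (background 0.264%), with AT1G68570 and WAVH2 as the exceptions, and its samples all lay above those of wild type for 5 of 6 (background 7.79%), with WAVH2 as the exception. In afb5-5 itself, limma called no transcript of the array between picloram and DMSO (0.0%; 1.03% at an unadjusted p under 0.05), and the samples of both treatments did not overlap for CAX1 and AT3G62550 only (background 1.75%). The response in afb5-5 was 6.62% of that in wild type for CYP96A9, 17.4% for CAX1, 21.8% for AT1G11700, 27.2% for AT1G68570, 30.8% for AT3G62550 and 37.5% for WAVH2, as a ratio of log2 changes. The choice of loci fixed the direction of the differences between picloram-treated wild type and afb5-5 and favoured large ones. The other comparisons of experiment b share arrays with that choice.

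The loci were lower in picloram-treated wild type of experiment a too, but by less and not all past the test. At 2 h, 6 of 6 lay lower in picloram than in DMSO (median -0.78, against -0.01 over all transcripts), in each of the 3 same-numbered pairs. The share of all transcripts lower in every pair was not counted. It is at least the 18.9% that lay wholly below DMSO. AT1G11700 and CAX1 fell, making 2 of 6 called lower at FDR under 0.05 (limma, Benjamini-Hochberg over all 30361 transcripts), in a comparison that called 5.84% of transcripts lower. With the replicate number as a block within each time point, 4 of 6 were called lower, AT3G62550 and WAVH2 being added, against 9.51% of transcripts. The picloram samples lay wholly below the DMSO samples for 5 of 6 loci, the exception being AT1G68570 (background 18.9%). In hypocotyls sampled in bulk, fewer cells of a type and less RNA per cell cannot be told apart.

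At 30 min no locus passed the test in experiment a. The 6 changes ran from -0.49 for AT3G62550 to 0.30 for CYP96A9 (median 0.03), 3 loci lying lower and 3 higher, and the groups overlapped for every one (5.76% of transcripts lay wholly below and 5.81% wholly above). Of the 6, limma called 0, against 0.208% of all transcripts called in either direction, and 0 had an unadjusted p under 0.05, against 8.08% of transcripts. By same-numbered pair, WAVH2 lay lower in picloram in all 3 (-0.08, -0.37 and -0.60) and AT1G11700 higher in all 3 (0.22, 0.03 and 0.26). The shares of all transcripts alike in all 3 pairs were not counted. Whether the 2 h response differed from the 30 min response was tested directly. The difference was negative for 6 of 6 loci (-0.21 to -1.39, median -0.61, against -0.01 over all transcripts). It was called by limma for 0 of them, against 0.846% of transcripts in either direction. AT1G11700 and CAX1 were the 2 with an unadjusted p under 0.05, against 16.4% of transcripts. With the block within each time point, AT1G11700 (adjusted p = 0.0296) and CAX1 (adjusted p = 0.0395) were called by limma, against 4.11% of transcripts in either direction.

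**Figure D1:**
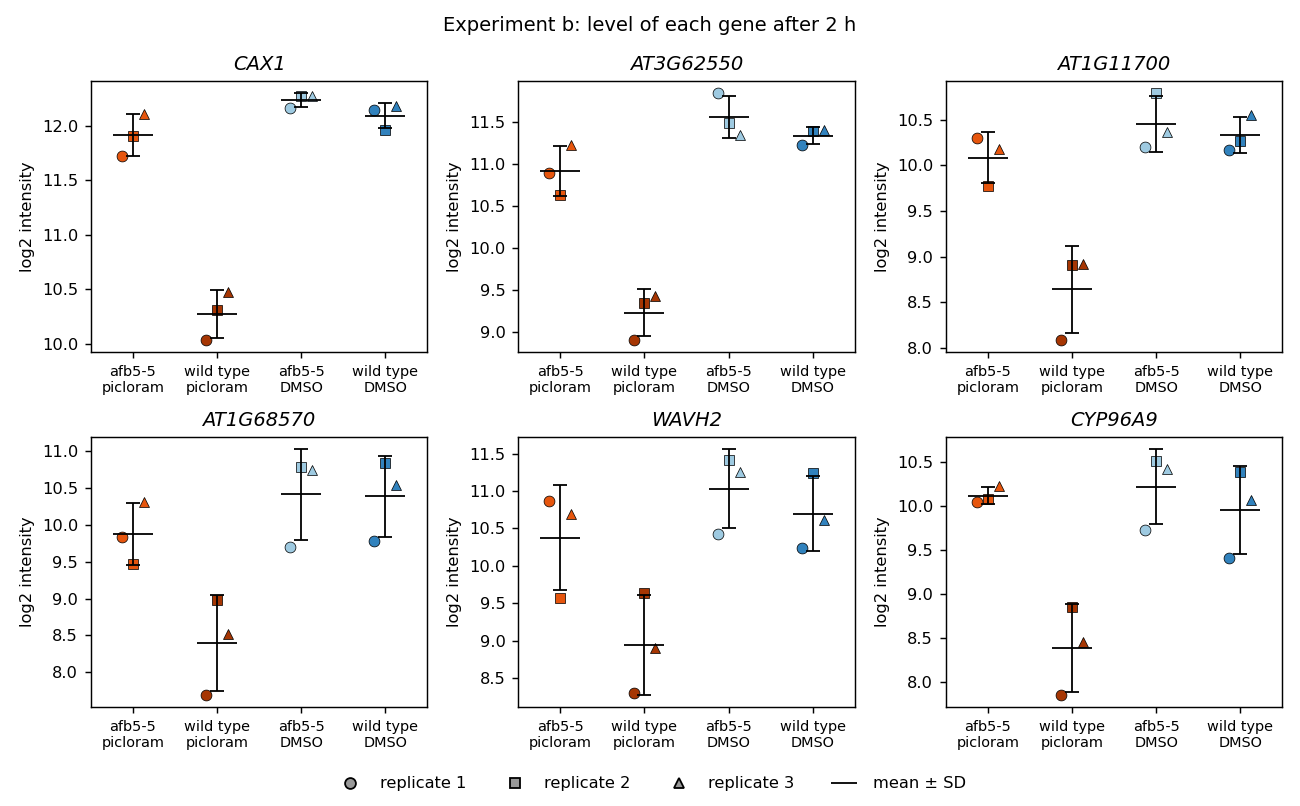
Level of each locus in the 12 samples of experiment b, as log2 intensity on axes that differ between panels and do not start at 0. Symbols are the 3 replicates and bars the mean ± SD; picloram-treated wild type is the lowest group in every panel, with WAVH2 the only locus at which it overlaps picloram-treated afb5-5.

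CAX1 had the genotype difference with the smallest SE of the 6. Its signal in experiment b was 11.72, 11.91 and 12.11 in picloram-treated afb5-5 (replicates 1 to 3), against 10.04, 10.31 and 10.48 in picloram-treated wild type. Under DMSO it was 12.16, 12.27 and 12.27 in afb5-5 and 12.14, 11.96 and 12.18 in wild type. Wild type under picloram stood apart from all other samples, and afb5-5 under picloram lay wholly below afb5-5 under DMSO and overlapped wild type under DMSO. The afb5-5 minus wild-type difference under picloram was 1.64 (SE 0.15). Same-numbered samples gave 1.68, 1.60 and 1.64, though the replicate number does not pair the genotypes (r from -0.7 to 0.2). The picloram response was -0.32 in afb5-5 and -1.82 in wild type (SE 0.15 each). The difference between these responses was 1.5 (SE 0.22), a value that shares its arrays with the choice of the locus.

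The other splice forms of CAX1 were dim. The third form read 7.80, 7.64 and 8.07 in picloram-treated afb5-5, against 6.34, 6.32 and 6.60 in picloram-treated wild type. Its response was -0.67 in afb5-5 and -1.97 in wild type (SE 0.19 each), and the 3 treated wild-type samples, at a mean intensity of 85.7, lay under the lower quartile of the arrays (132.0 to 159.1). The second form overlapped between picloram and DMSO, with a response of -0.17 in afb5-5 and -0.71 in wild type (SE 0.26 each). How far the probes of the 3 forms share sequence was not examined.

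In experiment a, CAX1 read 14.91, 15.84 and 15.50 after 30 min of picloram, against 15.23, 15.71 and 15.67 in DMSO. After 2 h it read 14.29, 14.54 and 14.60 in picloram, against 15.69, 15.71 and 15.63 in DMSO. The groups overlapped at 30 min, and at 2 h every picloram sample lay more than 1 log2 unit below its DMSO counterpart. The change was -0.12 (SE 0.23) at 30 min and -1.20 (SE 0.23; limma adjusted p = 0.00819) at 2 h, a 2.29-fold lower signal. The 2 h DMSO mean corresponds to an intensity of 52300 after quantile normalization. Before that normalization, the maxima of the deposited values on the arrays of experiment a were 63075 to 65326. CAX1 was thus read there near the top of the scale, and whether this narrowed the change was not tested.

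AT1G68570, the NRT1/PTR transporter, had 9.84, 9.47 and 10.31 in picloram-treated afb5-5, against 7.69, 8.98 and 8.52 in picloram-treated wild type. In DMSO it had 9.70, 10.79 and 10.75 in afb5-5 and 9.78, 10.84 and 10.54 in wild type. Replicate 1 was low in all groups but picloram-treated afb5-5, and the pairs of wild type agreed closely in their change (-2.09, -1.87 and -2.01). The response was -0.54 in afb5-5 and -1.99 in wild type (SE 0.40 each), and afb5-5 exceeded wild type under picloram by 1.48. This locus showed the smallest change of the 6 in experiment a at 2 h: 11.40, 11.42 and 11.64 in picloram, against 11.57, 11.94 and 11.70 in DMSO. The groups overlapped, and the change of -0.25 (SE 0.21) did not pass the test (limma adjusted p = 0.511). At 30 min it read 10.75, 11.07 and 11.41 in picloram, against 10.74, 11.13 and 10.52 in DMSO. The DMSO samples lay wholly higher at 2 h than at 30 min, by 0.94 (SE 0.21; limma adjusted p = 0.0930).

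WAVH2 was the most scattered of the loci. Picloram-treated afb5-5 gave 10.87, 9.57 and 10.69, against 8.3, 9.64 and 8.90 in picloram-treated wild type. The lowest of these afb5-5 samples lay below the highest of wild type. In DMSO it gave 10.43, 11.42 and 11.25 in afb5-5 and 10.24, 11.24 and 10.62 in wild type. The response was -0.66 in afb5-5 and -1.75 in wild type (SE 0.42 each). Without replicate 2 of picloram-treated afb5-5, the response in afb5-5 was -0.25 (SE 0.41) and the difference from wild type under picloram was 1.83, against 1.43 with it. In experiment a, WAVH2 read 11.17, 11.67 and 11.77 after 2 h of picloram, against 11.88, 12.08 and 12.35 in DMSO. All picloram samples lay below all DMSO samples, yet the change of -0.57 (SE 0.47) did not pass the test (limma adjusted p = 0.511). With the replicate block within each time point, the same change had an SE of 0.16 and a limma adjusted p of 0.0408. At 30 min the replicates spread over 10.54 to 11.98 in picloram and over 10.62 to 12.58 in DMSO.

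CYP96A9 showed the smallest response in afb5-5. It read 10.05, 10.08 and 10.23 in picloram-treated afb5-5, against 7.85, 8.85 and 8.45 in picloram-treated wild type. In DMSO it read 9.73, 10.52 and 10.42 in afb5-5 and 9.41, 10.39 and 10.07 in wild type. Only picloram-treated wild type stood apart. The response was -0.10 in afb5-5 and -1.58 in wild type (SE 0.30 each), and the genotype difference under picloram, 1.74, was the largest of the 6. In experiment a at 2 h it read 12.86, 12.68 and 13.07 in picloram, against 13.25, 13.22 and 13.33 in DMSO, without overlap but with a change of only -0.40 (SE 0.40; limma adjusted p = 0.595). At 30 min its levels spread over 11.52 to 13.35 in picloram and 11.89 to 12.89 in DMSO.

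AT3G62550 had the deepest response in wild type, beside a smaller change in afb5-5 that was not called. It read 10.89, 10.63 and 11.22 in picloram-treated afb5-5, against 8.91, 9.35 and 9.43 in picloram-treated wild type. In DMSO it read 11.84, 11.49 and 11.35 in afb5-5 and 11.22, 11.39 and 11.40 in wild type. The treated wild type was lowest, and treated afb5-5 also lay wholly below afb5-5 in DMSO. The response was -0.65 in afb5-5 and -2.10 in wild type (SE 0.20 each). In experiment a at 2 h it read 11.27, 11.44 and 11.65 in picloram, against 12.47, 12.41 and 12.46 in DMSO. The groups did not overlap, and the change of -0.99 (SE 0.30) missed the threshold (limma adjusted p = 0.0568), with 0.0418 under the block within each time point. At 30 min it read 12.91, 13.12 and 12.90 in picloram, against 13.40, 12.73 and 14.27 in DMSO. It was the only one of the 6 loci with a lower DMSO level at 2 h than at 30 min, by a change of -1.02 (SE 0.30; limma adjusted p = 0.152).

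AT1G11700 had the largest fall in experiment a. In experiment b it read 10.30, 9.77 and 10.18 in picloram-treated afb5-5, against 8.09, 8.91 and 8.92 in picloram-treated wild type. In DMSO it read 10.20, 10.79 and 10.37 in afb5-5 and 10.17, 10.27 and 10.55 in wild type. Treated afb5-5 overlapped both DMSO groups, which treated wild type did not. The response was -0.37 in afb5-5 and -1.69 in wild type (SE 0.25 each). In experiment a it read 12.40, 13.02 and 12.78 after 30 min of picloram, against 12.17, 12.99 and 12.51 in DMSO. After 2 h it read 11.92, 11.79 and 12.53 in picloram, against 13.30, 13.31 and 13.27 in DMSO. The DMSO samples of 2 h were nearly identical, and the groups did not overlap. The 2 h change was -1.22 (SE 0.25; limma adjusted p = 0.0124), a 2.32-fold lower signal, while at 30 min it was 0.17 (SE 0.25). Leaving out replicate 1 or replicate 2 of the 2 h picloram samples gave adjusted p values of 0.0553 and 0.0572 for this locus.

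**Figure D2:**
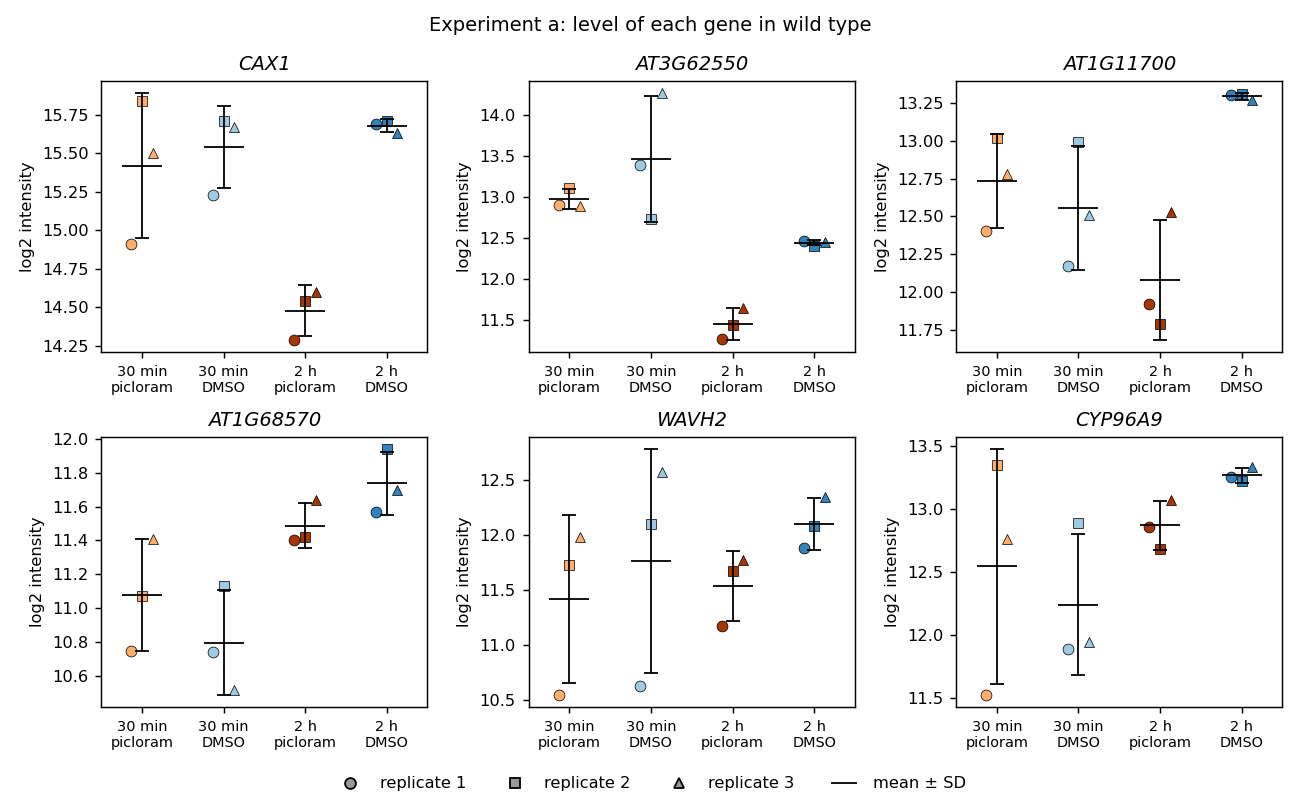
Level of each locus in the 12 wild-type samples of experiment a, as quantile-normalized log2 intensity on axes that differ between panels and do not start at 0. Symbols are the 3 replicates and bars the mean ± SD; at 30 min both treatments overlap in every panel, and at 2 h picloram lies below DMSO without overlap in all panels but that of AT1G68570.

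No change between the times passed the test in the DMSO controls of experiment a. At 2 h, 5 of 6 lay higher and 1 lower than at 30 min (median 0.54, against -0.02 over all transcripts), and both times did not overlap for AT1G68570, CYP96A9, AT1G11700 and AT3G62550. In the whole array, 11.2% of transcripts lay wholly above and 12.6% wholly below. Of the 6, limma called 0 (0.356% of transcripts), and 4 had an unadjusted p under 0.05 (16.5%). For CYP96A9 the change was 1.02 (SE 0.40), and for AT1G68570 the picloram level at 2 h (11.48 ± 0.13, SD) was itself above the DMSO level at 30 min (10.80 ± 0.31).

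**Figure D3:**
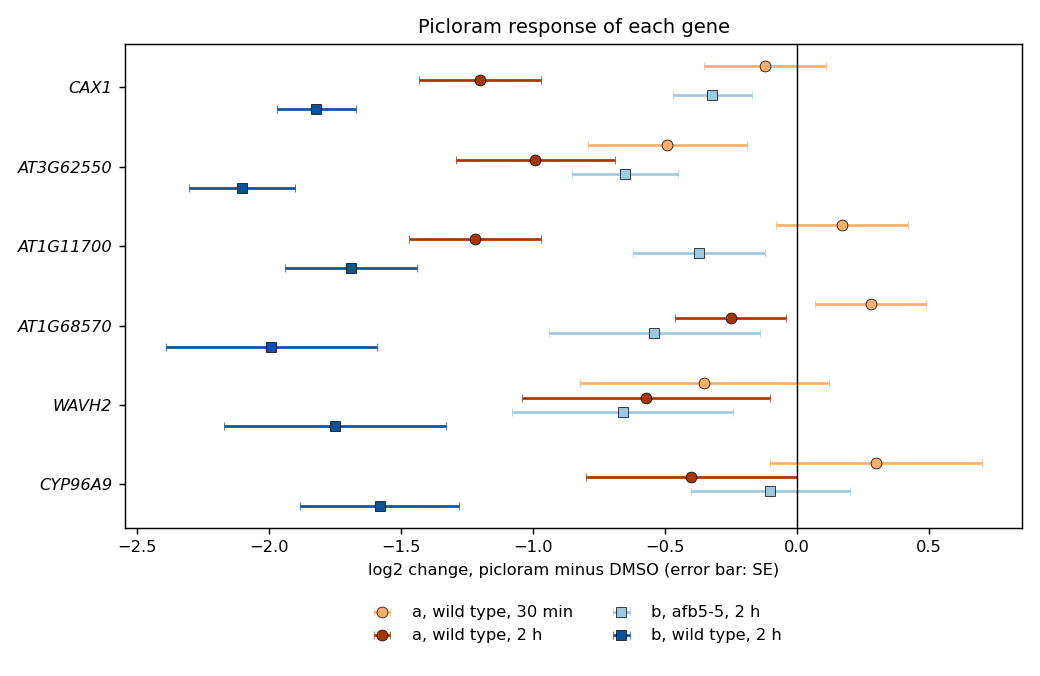
Picloram response of each locus as a log2 change against DMSO, with SE, in experiment a (circles, 30 min and 2 h) and experiment b (squares, afb5-5 and wild type). At 2 h the values lie between -0.25 and -1.22 for wild type in experiment a, between -0.10 and -0.66 for afb5-5 and between -1.58 and -2.10 for wild type in experiment b.

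Set side by side, the 2 h responses of wild type in experiments a and b were -1.20 and -1.82 for CAX1, -1.22 and -1.69 for AT1G11700, -0.99 and -2.10 for AT3G62550, -0.57 and -1.75 for WAVH2, -0.40 and -1.58 for CYP96A9, and -0.25 and -1.99 for AT1G68570. The loci were chosen by arrays of experiment b, which favours low values of picloram-treated wild type there and not in experiment a. The experiments also differ in array design, dye, RNA amplification and normalization, and the difference between them was not tested. Across the 12 samples of experiment b the 15 pairwise correlations of the 6 loci ran from 0.84 to 0.97 (median Pearson r 0.93) with the group contrasts included, and from 0.13 to 0.95 (median 0.51) once group means were removed. Across the 12 samples of experiment a they ran from -0.69 to 0.83 (median 0.40), and from -0.53 to 0.85 (median 0.57) within groups. The points of each correlation share arrays, treatment and normalization, and those of experiment b include the contrast by which the loci were chosen.

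In experiment b the same replicates tended to be low at several of these loci. Replicate 1 of picloram-treated wild type was the lowest of its group at 6 of 6 loci, and replicate 1 was also lowest at 5 of 6 in afb5-5 under DMSO and at 5 of 6 in wild type under DMSO. Replicate 2 was the lowest of picloram-treated afb5-5 at 4 of 6. Without it the response in afb5-5 lay between -0.08 and -0.51, against -0.10 to -0.66 with it, and the genotype difference under picloram between 1.60 and 1.83. Marker sums differed between groups as well: the summed signal of the 3 green-tissue markers was 15.03 to 15.11 in picloram-treated afb5-5, 14.78 to 14.96 in picloram-treated wild type, 15.04 to 15.10 in afb5-5 under DMSO and 15.15 to 15.27 in wild type under DMSO. That of the 3 epidermis markers was 14.42 to 14.62 in picloram-treated afb5-5, 14.63 to 14.78 in picloram-treated wild type, 14.22 to 14.52 in afb5-5 under DMSO and 14.28 to 14.44 in wild type under DMSO. Picloram-treated wild type, the group in which the 6 loci were low, thus had the lowest green-tissue and the highest epidermis sums. Singly, none of these markers was called by limma between picloram and DMSO in either genotype of experiment b. Whether the marker sums had a part in the result was not tested. In experiment a at 2 h the green-tissue sum was 16.14 to 16.36 in picloram and 16.34 to 16.41 in DMSO. The sum of the 3 root-hair markers was 9.41 to 11.79 in picloram and 8.29 to 10.04 in DMSO. The epidermis sum was 17.02 to 17.1 in picloram and 16.91 to 17.0 in DMSO, again higher in picloram. Of the 3 epidermis markers, limma called 1 higher there, in a comparison that called 5.53% of transcripts higher.

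Of the 5 other CAX exchangers, which move calcium and other cations into the vacuole, 1 rose in wild type of experiment a at 2 h, in a comparison that called 5.53% of transcripts higher, and none fell (median 0.03). The one that rose was CAX2, by 0.68 (SE 0.17; limma adjusted p = 0.0254), in the direction opposite to CAX1. CAX3 gave -1.0 (SE 0.44; limma adjusted p = 0.180) in experiment a and 0.08 (SE 0.31) in experiment b. In wild type of experiment b, where limma called 1.71% of transcripts higher, none of the 5 was called (median 0.01, from -0.56 for CAX6 to 0.53 for CAX2). Among 7 other genes of vacuolar calcium and proton transport, AVP1, the vacuolar pyrophosphatase, rose by 0.75 (SE 0.15; limma adjusted p = 0.0102) and MHX, a magnesium and zinc/proton exchanger, fell by 0.80 (SE 0.17; limma adjusted p = 0.0125) in experiment a. In wild type of experiment b ACA11 rose by 0.58 (SE 0.13; limma adjusted p = 0.0481) and ACA4 fell by 0.70 (SE 0.12; limma adjusted p = 0.0106), both of them vacuolar calcium pumps. Of all transcripts, 5.84% were called lower in experiment a at 2 h and 0.458% in wild type of experiment b.

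The 3 other genes of the WAV3 list rose in experiment a at 2 h, in a comparison that called 5.53% of transcripts higher: EDA40 by 1.79 (SE 0.21; limma adjusted p = 0.000771), WAVH1 by 1.55 (SE 0.19; limma adjusted p = 0.00109) and AT5G49665 by 1.40 (SE 0.19; limma adjusted p = 0.00145), where WAVH2 gave -0.57 and was not called. In wild type of experiment b, where limma called 1.71% of transcripts higher, none of the 3 was called (WAVH1 1.05, EDA40 0.60 and AT5G49665 0.02), where WAVH2 gave -1.75. In afb5-5 the 3 genes lay between 0.09 and 0.41.

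**Figure D4:**
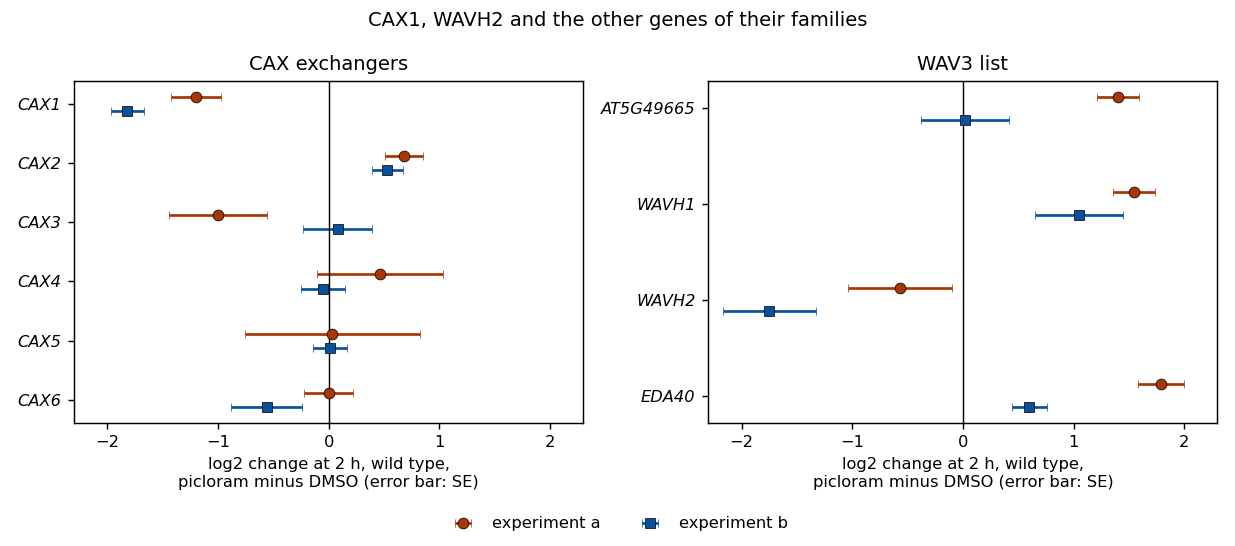
Log2 change in wild type after 2 h of picloram against DMSO, with SE, for the 6 CAX exchangers and the 4 genes of the WAV3 list in experiment a (circles) and experiment b (squares). CAX1 lies at -1.20 and -1.82 with CAX2 on the other side of 0, and WAVH2 at -0.57 and -1.75 with the other 3 genes of its list at 0.02 or above.

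Of 20 other NRT1/PTR family genes listed beside AT1G68570, 3 rose and 4 fell in experiment a at 2 h (median -0.05), in a comparison that called 5.53% of transcripts higher and 5.84% lower. The 5 with the largest called changes were NPF8.2 (1.41, SE 0.24), NPF2.10 (-1.15, SE 0.21), NPF2.13 (1.14, SE 0.33), NPF2.9 (-0.92, SE 0.17) and NPF4.6 (-0.89, SE 0.18), with limma adjusted p values from 0.00516 to 0.0495. None of the 20 was called by limma in wild type of experiment b (1.71% of transcripts higher, 0.458% lower), where they ran from -0.61 to 0.68 and AT1G68570 stood at -1.99. Of 12 other CYP96A genes, CYP96A1 rose by 0.91 (SE 0.19; limma adjusted p = 0.0115) and CYP96A12 fell by 1.76 (SE 0.44; limma adjusted p = 0.0256) in experiment a, against the same shares over all transcripts, and none was called in wild type of experiment b (-0.71 to 0.56). CYP96A9 to CYP96A12 are consecutive genes in the TAIR10.1 annotation, and both genes between them, CYP96A10 (0.09, SE 0.21) and CYP96A11 (0.21, SE 0.45), were not called in experiment a. Their mean log2 signal there was low, at 5.81 and 7.28, against 12.73 for CYP96A9 and 11.87 for CYP96A12. A change in them could have been missed.

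Lists of relatives were also drawn up for AT1G11700 and AT3G62550, though the sources used here do not annotate the family of every locus on them. Of 13 other loci listed for DUF584, 1 was called higher and none lower in experiment a at 2 h (limma; median -0.31), and 1 lower and none higher in wild type of experiment b (median -0.13). Of 14 other loci listed as universal stress proteins, none was called higher and 1 lower in experiment a (median -0.35), and none in either direction in wild type of experiment b (median -0.18). The medians over all transcripts were -0.01 in experiment a and -0.03 in experiment b. Of all transcripts, limma called 5.53% higher and 5.84% lower in experiment a at 2 h. In wild type of experiment b it called 1.71% higher and 0.458% lower.

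The loci lie on all chromosomes of the nuclear genome. The nearest gene on either side of each locus in the TAIR10.1 annotation was taken among genes measured on both array designs. Of these 12 genes, limma called none lower and 1 higher in experiment a at 2 h (median -0.04), beside 5.84% lower and 5.53% higher over all transcripts. In wild type of experiment b it called 1 lower and none higher (median -0.03), beside 0.458% lower and 1.71% higher over all transcripts. The gene called higher was XYL1, beside AT1G68570, at 1.63 (SE 0.23; limma adjusted p = 0.00184). The gene called lower was AT2G38180, the neighbour of CAX1, at -0.79 (SE 0.16; limma adjusted p = 0.0292) in experiment b and -1.17 (SE 0.35; limma adjusted p = 0.0524) in experiment a.

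The profile of CAX1 was most like those of SFP1, TPPB, RMA2, AT1G78020 and ASN2, ranked by the lower of the correlations over the 12 samples of either experiment among 30196 other loci. Pearson r was 0.97 in experiment a and 0.94 in experiment b for SFP1, 0.94 and 0.98 for TPPB, a trehalose-6-phosphate phosphatase, and 0.95 and 0.92 for RMA2, a RING membrane-anchor protein. For AT1G78020 it was 0.91 and 0.95, and for ASN2, an asparagine synthetase, 0.91 and 0.97. AT3G62550 was most like AT4G34950 (0.94 and 0.93) and AT3G46880 (0.92 and 0.97), and AT1G11700 most like AT2G17710 (0.94 and 0.93) and XTH32 (0.91 and 0.93), a xyloglucan endotransglucosylase/hydrolase. AT1G68570 was most like PMSR2 (0.93 and 0.88), a methionine sulfoxide reductase, and FLA15 (0.86 and 0.86), an arabinogalactan protein. WAVH2 was most like AT5G23920 (0.89 and 0.90) and AT5G19290 (0.87 and 0.92), and CYP96A9 most like AT4G15620 (0.91 and 0.88) and AT2G34620 (0.88 and 0.93). These correlations hold over samples that share treatment groups and are given as a description.

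At the edge of the choice, loci just inside and just outside had almost the same values. In experiment b, 91 loci were called lower in picloram-treated wild type than in picloram-treated afb5-5 and lay lower in each comparison of same-numbered samples. The number does not pair the genotypes. Among these loci, the fifth was AT1G11700 (wild type minus afb5-5, -1.44) and the sixth AT1G34844 (-1.43), which is not one of the 6. Among 279 such loci for picloram-treated wild type against afb5-5 under DMSO, the fifth was CAX1 (-1.96) and the sixth ARR6 (-1.93). BBX14, at -1.85 and -2.06 in these comparisons, ranked ahead of AT1G11700 and of CAX1 and was not chosen.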

How the data were processed

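Values were deposited by the authors as linear signal intensity per transcript on NimbleGen arrays, processed with RMA (background correction, normalization and probe summarization; version not given in the sources used here). Experiment a used TAIR8 models and experiment b TAIR10 models. Intensities were taken to log2, and those of experiment a were also quantile-normalized across its 12 samples, because their medians differed. Groups came from the sample titles. One limma model per experiment (limma 3.58.1, R 4.3.3; all 12 samples, no covariates, default eBayes) gave changes and SE, with Benjamini-Hochberg adjustment over all transcripts and a threshold of 0.05. The lowest numbered splice form stood for a locus. The number of arrays limits the precision.

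The 6 loci and all gene lists were chosen with earlier results of these data known. Named relatives were every gene of the CAX, WAV3 and vacuolar transport lists and, of the NRT1/PTR and CYP96A lists, up to 5 called ones by size of change (the DUF584 and universal stress protein lists are given as counts); the flanking genes were chosen after their values were seen. Profile likeness was the lower of 2 Pearson correlations, with 5 loci named for CAX1 and 2 for each other locus.

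Same-numbered picloram and DMSO samples deviated together within each time of experiment a (r 0.37 to 0.60 at 30 min, 0.34 to 0.55 at 2 h), so the number was taken to pair them, from the data. In experiment b they did so in wild type (0.38 to 0.67) and not clearly in afb5-5 (0.04 to 0.18). Same-numbered picloram samples of afb5-5 and wild type did not deviate together (-0.7 to 0.2), so the number pairs no samples across genotypes. The model was tested on data simulated from the 2 h comparison of experiment a (30361 transcripts) and from wild type of experiment b (37118 transcripts). It called 37.0% of changes of 1 log2 unit and 77.8% of 2 in experiment a, with 6 false calls. In experiment b it called 53.1% and 90.2%, with 8 false calls. Simulated samples were independent, without the pairing by number. Alternatives were other normalizations, replicate blocks, a fit to the compared groups, leaving out the dimmest 25% of transcripts, eBayes with trend and robust settings, a threshold of 0.01, the mean over splice forms and each replicate left out.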

Additional observations from a re-analysis of the deposited data

Results flagged for a closer look

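The same-numbered pairs of AT1G11700 had opposite signs at the 2 times of experiment a. In picloram it was above DMSO in all 3 same-numbered pairs at 30 min, by 0.17 on average on the log2 scale (0.22, 0.03 and 0.26 by pair), and below DMSO in all 3 pairs at 2 h (-1.38, -1.52 and -0.74, change -1.22). The groups overlapped at 30 min, where the change did not pass the test (SE 0.25; limma adjusted p = 0.936). The difference between both responses was -1.39 (SE 0.36), with a limma adjusted p of 0.0898, and 0.0296 with the replicate block within each time point.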

How the results depend on the processing

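All changes of single loci kept their direction wherever they were called. In experiment a, 322 of the values of single loci under an alternative kept their side of the threshold, 12 passed it newly and 2 no longer passed it. The number of loci called lower at 2 h, 2 as reported, was 1 at an FDR under 0.01, 4 with the replicate block within each time point and 2 with the number as a term over both times, and ranged from 1 to 2 with a replicate left out. AT3G62550 at 2 h was also called in the fit to the compared groups only (adjusted p = 0.00902), without the dimmest transcripts (0.0465) and with trend and robust settings (0.0272). The number of loci whose response differed between the times, 0 as reported, was 2 with the block within each time point and 2 with trend and robust settings, both times AT1G11700 and CAX1, and 0 to 1 with a replicate left out (CAX1 without replicate 1 of picloram at 30 min, adjusted p = 0.0481). For DMSO at 2 h against 30 min, 0 as reported, it was 1 with trend and robust settings (AT1G68570, adjusted p = 0.0479) and 0 to 1 with a replicate left out (AT3G62550 without replicate 2 of DMSO at 30 min, adjusted p = 0.0470); the block within each time point cannot be estimated for that comparison. The cause of these changes was not tested. In experiment b, 333 values stayed within the spread of replicates and 3 moved, all for CAX1 averaged over its splice forms: 1.16 for the genotype difference under picloram, -1.50 for the response of wild type and 1.11 for the difference between responses. The replicate block changed no other call. With 3 samples a group, a change can miss the threshold well above 1 log2 unit, as WAVH2 did in wild type of experiment b at -1.75 (SE 0.42), and a change that missed it is not shown to be absent.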
